A study of Mus musculus with 6 samples.

Results

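Krüppel-like factors (KLFs) are transcription factors with zinc fingers at their carboxyl end that bind GC-rich and CACCC-type DNA. The 10 family genes described here are Klf2, Klf3, Klf4, Klf5, Klf6, Klf7, Klf9, Klf10, Klf12 and Klf13, chosen by symbol and matched through the transcript identifiers of the array. Each gene was represented by 1 probe, so the 10 genes rest on 10 of the 55646 probes kept and 10 of the 20274 genes named. All 10 probes were well above background on all 6 arrays.

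The cells were mouse epiblast stem cells of strain 129/Sv, which correspond to the epiblast after implantation. The first group was kept in the maintenance condition (EpiSC), the next was moved to a condition that favours neural plate development for 1 day (NPC1), and the last stayed in that condition for 2 days (NPC2). Each group had 2 cultures, A and B, and all 6 cultures came from a single seed culture. The labels name no genetic change in any group. Each culture gave 1 total RNA, which was labelled in a single colour (Cy3) and measured on 1 Agilent array. The duplicates share their source, so the p-values below measure only the spread between these cultures, part of which may be technical.

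Family members divide by the proteins they recruit and the tissues they serve. Klf2, Klf4 and Klf5 sustain self-renewal in naive mouse embryonic stem cells, where leukaemia inhibitory factor and STAT3 induce Klf4, and forced Klf2 or Klf4 can return epiblast stem cells to the naive state. Klf6, Klf7 and Klf10 respond to growth factors, injury or TGF-beta in many tissues, Klf9 and Klf13 repress through the Sin3 corepressor, and Klf3 and Klf12 repress through CtBP.

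Between 58.1% and 61.1% of the spots were well above background on an array, and 0 were saturated. Duplicate arrays correlated at 0.9971 to 0.9975 across all tested genes, and arrays of different groups at 0.9418 to 0.98; genes are not independent replicates, so these values are descriptions. All 9 epiblast stem cell markers were measured, and 8 of them were lower in NPC2 than in EpiSC. Of the 12 neural plate markers, 9 were above background on all 6 arrays, and all 9 were higher in NPC2 than in EpiSC. Hes3, Pou3f2 and Six3 were above background in NPC2 only. Over all tested genes 28.3% were called higher and 40.7% lower in NPC2 than in EpiSC. The median SE of a log2 difference was 0.0678 over tested genes. Intensities are given on a linear scale after each array was set to a common 75th percentile of 360.7 units.

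Promoter sequences are shown for Klf2, Klf6 and Klf7, whose group means were all highest on day 1 and lowest on day 2. Klf12 and Klf13 had the same order of means, with smaller differences, and are not shown. The day 1 rise of Klf2 did not pass the test. Also shown is Klf3, the only member of the 10 that passed the test as higher in NPC2 than in EpiSC. Each sequence is the 250 bases before the annotated start on the gene's strand, from RefSeq on build GRCm38.p6. The windows are chr8:72318812-72319061 on the plus strand for Klf2, chr13:5861239-5861488 on the plus strand for Klf6, chr1:64121390-64121639 on the minus strand for Klf7 and chr5:64803271-64803520 on the plus strand for Klf3. Capitals mark the KLF-type motif CACCC, the Sp-type motif GGGCGG and the MEF2 consensus, on either strand, and marked motifs that overlap or touch run together.
Klf2: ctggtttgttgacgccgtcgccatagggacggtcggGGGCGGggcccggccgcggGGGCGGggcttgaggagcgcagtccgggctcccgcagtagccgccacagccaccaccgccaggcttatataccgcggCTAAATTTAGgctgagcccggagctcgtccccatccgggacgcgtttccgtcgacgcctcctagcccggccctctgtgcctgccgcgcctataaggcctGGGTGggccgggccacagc
Klf6: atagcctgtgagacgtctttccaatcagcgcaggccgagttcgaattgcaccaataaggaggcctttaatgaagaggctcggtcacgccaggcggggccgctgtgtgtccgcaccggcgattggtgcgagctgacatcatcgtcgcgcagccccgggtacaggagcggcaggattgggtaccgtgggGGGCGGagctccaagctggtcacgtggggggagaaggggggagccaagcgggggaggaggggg
Klf7: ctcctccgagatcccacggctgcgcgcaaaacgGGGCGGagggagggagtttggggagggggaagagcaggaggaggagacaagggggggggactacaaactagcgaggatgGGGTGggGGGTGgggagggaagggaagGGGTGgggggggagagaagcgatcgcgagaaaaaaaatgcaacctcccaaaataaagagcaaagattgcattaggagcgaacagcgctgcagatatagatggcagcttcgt
Klf3: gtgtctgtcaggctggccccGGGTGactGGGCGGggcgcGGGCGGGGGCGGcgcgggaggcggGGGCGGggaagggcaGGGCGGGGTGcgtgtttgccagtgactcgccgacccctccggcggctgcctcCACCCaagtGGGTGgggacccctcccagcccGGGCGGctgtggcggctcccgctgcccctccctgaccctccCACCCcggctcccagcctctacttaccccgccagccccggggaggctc

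RefSeq promoters were found for 8 of the 10 members; Klf5 and Klf10 had no entry in the table used. CACCC stood in 6 of the 8 promoters and in 52.0% of all 32851 promoter windows of the same length. GGGCGG stood in 6 of the 8, against 32.7% of all windows. The Klf3 window held 5 CACCC and 6 GGGCGG matches, the Klf7 window 3 and 1, the Klf2 window 1 and 2, and the Klf6 window 0 and 1. The MEF2 consensus stood in 1 of the 8, the Klf2 promoter, starting 118 bases before the start, and in 2.92% of all windows. CCAAT was found in 3 of the 8 members' windows against 33.8% of all, TATAAA in 1 against 12.4%, the STAT-type motif TTCNNNGAA in 1 (Klf9) against 7.02%, and the serum response factor CArG consensus in 0 against 1.47%. These matches describe letters only, and none is a tested binding site.

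**Figure D1:**
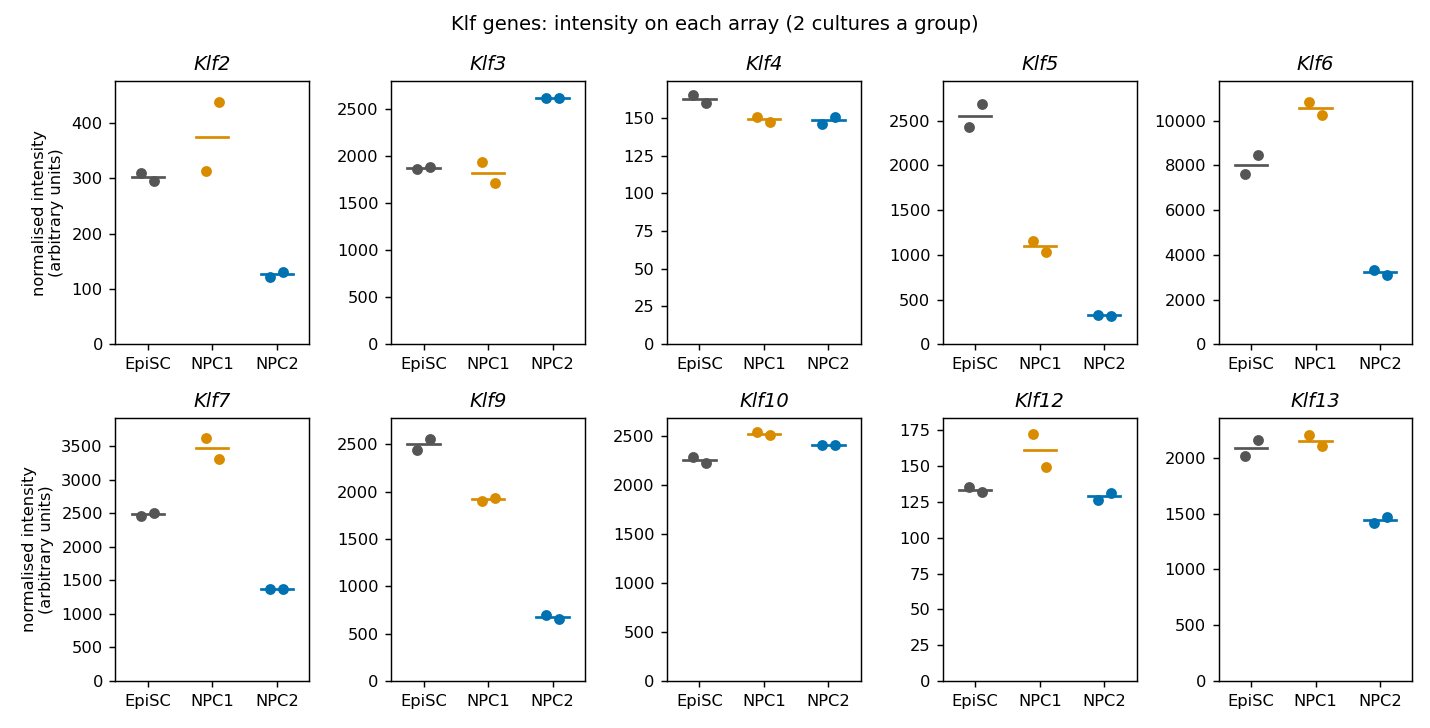
Normalised intensity (arbitrary units, linear axis from 0) of the 10 Klf genes in the 2 cultures of EpiSC, NPC1 and NPC2. Points are single arrays and lines are group means; Klf5 and Klf9 step down on both days, Klf6 and Klf7 peak on day 1, and Klf3 is highest on day 2.

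Of the genes tied to naive pluripotency, Klf5 fell on both days, Klf2 was lower on day 2 than in both other groups, and Klf4 did not pass the test. Klf5, which supports self-renewal and is prominent in epithelia and trophectoderm, measured 2426 and 2686 in EpiSC, 1160.1 and 1032 in NPC1, and 331 and 320.3 in NPC2. The cultures of the 3 groups did not overlap. Klf5 was 2.33-fold lower in NPC1 than in EpiSC (log2 change -1.22, SE 0.084, adjusted p = 0.000593 in limma). It was 7.84-fold lower in NPC2 than in EpiSC (log2 change -2.97, adjusted p = 1.71e-05) and 3.36-fold lower in NPC2 than in NPC1 (log2 change -1.75, adjusted p = 0.000179). The measurement is of bulk RNA, in which fewer cells of a type and less RNA per cell cannot be told apart.

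Epithelial markers also fell, mainly on day 2: 9 of 11 were lower and 1 was higher in NPC2 than in EpiSC, with a median log2 change of -2.31. Over all tested genes 40.7% were lower and 28.3% higher, with a median of -0.10. None of the 11 markers was below background on every array. Their summed normalised level was 22944.5 to 24766 in NPC2 and 84054 to 88524 in EpiSC. In NPC1 it was 67480.1 to 71721, with 6 of 11 lower and 1 higher than in EpiSC, against 29.0% and 21.3% of all genes. The median log2 change was -0.35. Compared with the mean of NPC2 and EpiSC, NPC1 was higher for 7 of 11 and lower for 0, against 15.5% and 14.0% of all genes. Klf5 narrowly missed the threshold in that comparison (log2 change 0.26, adjusted p = 0.0526 in limma). It passed as higher under 3 of 14 alternatives: normexp background correction, quantile normalisation and the filter for genes above background on all 6 arrays. Klf5 is therefore not clearly set apart from the markers here. The part of these markers in the Klf5 result was not tested.

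Klf2, a factor of naive pluripotency that also acts in endothelium downstream of ERK5 and MEF2, measured 309.7 and 294 in EpiSC, 313 and 437 in NPC1, and 122 and 131 in NPC2. Both NPC2 cultures lay well below all the others. Klf2 was 2.39-fold lower in NPC2 than in EpiSC (log2 change -1.26, SE 0.16, adjusted p = 0.00183) and 2.93-fold lower in NPC2 than in NPC1 (log2 change -1.55, adjusted p = 0.00171). The NPC1 duplicates differed 1.4-fold, a gap larger than in 95.2% of tested genes. The log2 change in NPC1 against EpiSC was 0.29 with a 95% interval of -0.13 to 0.72 (adjusted p = 0.199). Without NPC1 culture A it was 0.53, and without NPC1 culture B it was 0.05, the lowest of the 14 alternatives. After normexp background correction the change passed the test. Of the 8 endothelial markers, Emcn, Erg and Tie1 were below background on all arrays, and 3 were tested. Kdr and Pecam1 gave log2 changes of -0.03 and 0.06 in NPC2 against EpiSC, while Esam was below background in NPC2 and NPC1 and at least 7.9-fold lower in NPC2 than in EpiSC. The part of these markers in the Klf2 result was not tested; the summed level of the 8 was 3782 to 4383 in NPC2, 4075 to 4366.5 in NPC1 and 4143 to 4235 in EpiSC.

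Klf4, one of the reprogramming factors, measured 165 and 160.1 in EpiSC, 151 and 147 in NPC1, and 146 and 150.3 in NPC2. Both EpiSC cultures were above all 4 cultures in the neural plate condition, by a small margin. The log2 change was -0.12 in NPC1 (95% interval -0.24 to -0.01, adjusted p = 0.0784) and -0.13 in NPC2 (95% interval -0.25 to -0.01, adjusted p = 0.0517), both against EpiSC. Neither passed the test, and the NPC2 value turned to 0.09 in the authors' value table, also short of the threshold. With quantile normalisation or median scaling both values passed as lower, and the NPC2 value did so too when genes were kept only if above background on all 6 arrays. NPC2 against NPC1 gave a log2 change of -0.01 with an interval of -0.13 to 0.11.

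Klf6 and Klf7 were higher on day 1 and lower on day 2 than in EpiSC. Klf6, an immediate early gene induced by growth factors and wounding, measured 7611 and 8456 in EpiSC, 10833 and 10280.0 in NPC1, and 3338.5 and 3095 in NPC2. No 2 groups overlapped, and NPC1 was the highest. The gene was 1.32-fold higher in NPC1 than in EpiSC (log2 change 0.40, SE 0.077, adjusted p = 0.0119), a call that was lost without EpiSC culture A or without NPC1 culture A, where the highest adjusted p was 0.0564. Klf6 was 2.5-fold lower in NPC2 than in EpiSC (log2 change -1.32, adjusted p = 0.000121) and 3.28-fold lower in NPC2 than in NPC1 (log2 change -1.72, adjusted p = 0.000145).

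Klf7, which promotes axon growth and is needed for the differentiation of olfactory and sensory neurons, measured 2460.2 and 2498.5 in EpiSC, 3621 and 3307 in NPC1, and 1369 and 1366 in NPC2. Again the groups did not overlap, and the NPC2 cultures were nearly the same. Klf7 was 1.4-fold higher in NPC1 than in EpiSC (log2 change 0.48, SE 0.059, adjusted p = 0.00296). In NPC2 it was 1.81-fold lower than in EpiSC (log2 change -0.86, adjusted p = 0.000205) and 2.53-fold lower than in NPC1 (log2 change -1.34, adjusted p = 0.000142). All of these Klf7 calls held under the 14 alternatives run.

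Klf10, known as the TGF-beta inducible early gene, measured 2287 and 2221 in EpiSC, 2542 and 2507 in NPC1, and 2409 and 2411 in NPC2. The NPC1 cultures were the highest, by a small margin. The log2 change of 0.16 in NPC1 against EpiSC passed the test (SE 0.044, adjusted p = 0.0317), but 10 of 14 alternatives lost it, among them median scaling and each left-out culture. In NPC2 against EpiSC the change was 0.10 (95% interval -0.02 to 0.21, adjusted p = 0.105); it passed with quantile normalisation and in the authors' value table, where it was largest, at 0.32.

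Klf9 fell on both days, and Klf13 was lower on day 2 than in both other groups. Klf9, which thyroid hormone and glucocorticoids induce in brain and other tissues, measured 2443 and 2552.5 in EpiSC, 1905 and 1934 in NPC1, and 693 and 650.0 in NPC2. The 3 groups did not overlap, and the larger step came on day 2. Klf9 was 1.3-fold lower in NPC1 than in EpiSC (log2 change -0.38, SE 0.055, adjusted p = 0.00485). It was 3.72-fold lower in NPC2 than in EpiSC (log2 change -1.90, adjusted p = 1.8e-05) and 2.86-fold lower in NPC2 than in NPC1 (log2 change -1.52, adjusted p = 9.52e-05).

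Klf13, a close relative of Klf9 that regulates cytokine genes in lymphocytes and acts in heart development, measured 2019 and 2161.5 in EpiSC, 2207 and 2101 in NPC1, and 1413 and 1468.5 in NPC2. EpiSC and NPC1 overlapped, and both NPC2 cultures lay below them. Klf13 was 1.45-fold lower in NPC2 than in EpiSC (log2 change -0.54, SE 0.059, adjusted p = 0.001) and 1.49-fold lower in NPC2 than in NPC1 (log2 change -0.58, adjusted p = 0.0015). NPC1 against EpiSC gave 0.04 with a 95% interval of -0.11 to 0.20.

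Klf3 rose on day 2, and Klf12 had a small day 1 maximum. Klf3, a CtBP-dependent repressor active in blood and fat, measured 1862 and 1885 in EpiSC, 1931 and 1710.3 in NPC1, and 2612 and 2615 in NPC2. Both NPC2 cultures were above all the others, and EpiSC and NPC1 overlapped. Klf3 was 1.4-fold higher in NPC2 than in EpiSC (log2 change 0.48, SE 0.07, adjusted p = 0.00264) and 1.44-fold higher in NPC2 than in NPC1 (log2 change 0.52, adjusted p = 0.00357). Against EpiSC, NPC1 gave -0.04 with an interval of -0.22 to 0.14. Blood markers did not move up with Klf3: 5 of 6 tested were lower in NPC2 than in EpiSC, against 40.7% of all genes. Spi1 was below background on all arrays. The summed level of the blood markers was 297 to 300.5 in NPC2, 396 to 414 in NPC1 and 499 to 515 in EpiSC.

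Klf12, first described as a repressor of the AP-2 alpha gene, measured 135 and 132 in EpiSC, 173 and 149 in NPC1, and 127 and 131.5 in NPC2. The NPC1 cultures were the highest and differed from each other by more than the EpiSC pair did. The log2 change was 0.27 in NPC1 against EpiSC (SE 0.082, adjusted p = 0.0478) and -0.32 in NPC2 against NPC1 (adjusted p = 0.0305). The first call was lost under 8 of 14 alternatives and the second under 7. NPC2 and EpiSC differed by -0.05 (95% interval -0.26 to 0.16).

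**Figure D2:**
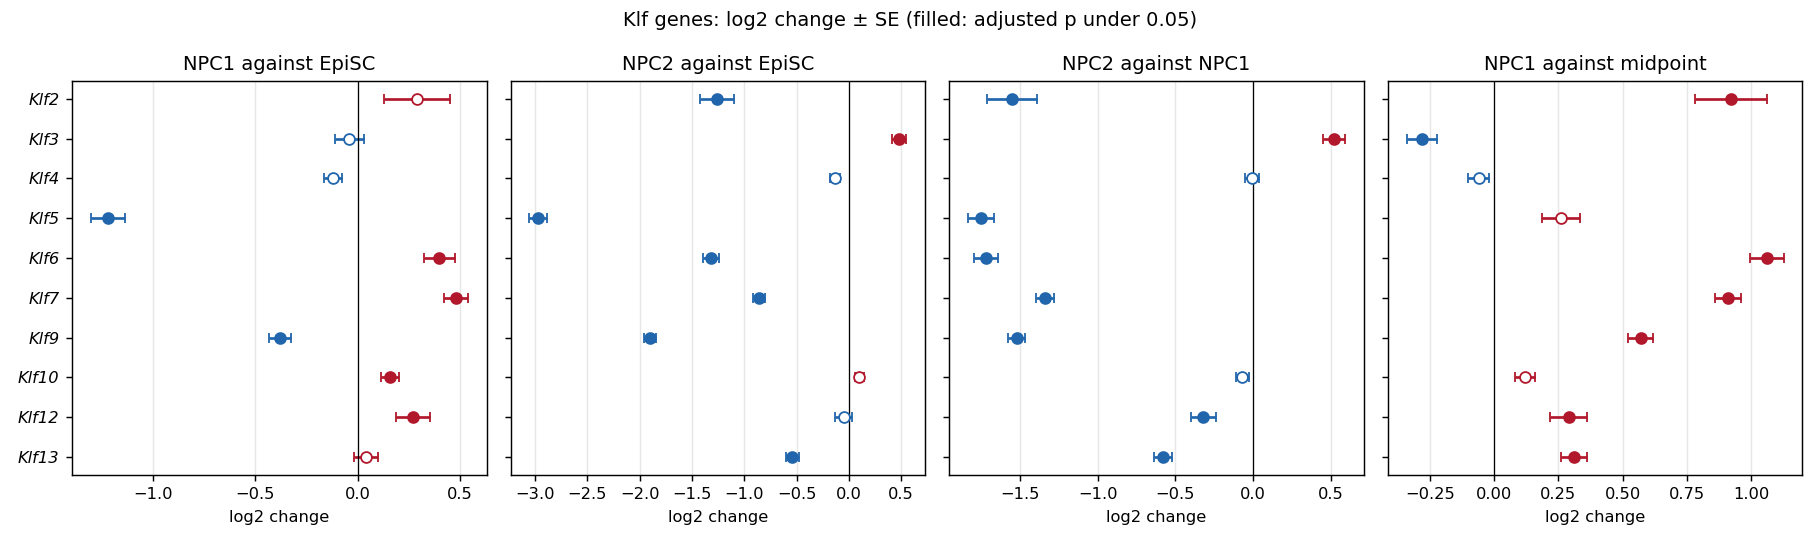
Log2 change with its SE of the 10 Klf genes in 4 comparisons, the last being NPC1 against the mean of NPC2 and EpiSC; filled points passed an adjusted p of 0.05 and each panel has its own axis. Klf5 and Klf9 lie left of 0 in the first 3 panels, while Klf6 and Klf7 lie right of 0 in the first and left in the next 2.

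Over the family, 4 of the 10 genes were higher in NPC1 than in EpiSC (Klf6, Klf7, Klf10 and Klf12) and 2 were lower (Klf5 and Klf9). Among all 14773 tested genes 50.3% were called in that comparison, 21.3% as higher and 29.0% as lower. In NPC2 against EpiSC 1 member was higher (Klf3) and 6 were lower (Klf2, Klf5, Klf6, Klf7, Klf9 and Klf13), with 69.0% of all genes called, 28.3% higher and 40.7% lower. In NPC2 against NPC1, 1 member was higher (Klf3) and 7 were lower, Klf12 joining the previous 6, with 47.5% of all genes called, 20.8% higher and 26.6% lower. These comparisons share control arrays, so their counts are not separate evidence.

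The share of members called was thus close to that of all genes in the first 2 comparisons, and 8 of 10 in the third. The members' median log2 change was 0.10 in NPC1 against EpiSC, -0.70 in NPC2 against EpiSC and -0.96 in NPC2 against NPC1. Over all tested genes these medians were -0.05, -0.10 and -0.04. Under the scaling alternatives the members' median ran between 0.00 and 0.23 in the first comparison, between -0.78 and -0.47 in the second and between -0.94 and -0.86 in the third. When the single probes were tested with adjustment over all 33536 tested probes, 2 members were higher and 2 lower in NPC1 against EpiSC, where 33.3% of probes were called, 16.0% higher and 17.3% lower; Klf10 and Klf12 were the calls lost. By probe, NPC2 against EpiSC gave 1 higher and 6 lower (54.5% of probes called, 23.9% higher and 30.7% lower) and NPC2 against NPC1 gave 1 higher and 6 lower (31.8% called, 13.7% higher and 18.2% lower), Klf12 being the call lost.

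NPC1 was also compared with the mean of NPC2 and EpiSC, which asks whether day 1 lay off the midpoint of the other groups. Of the 10 members 6 lay above it (Klf2, Klf6, Klf7, Klf9, Klf12 and Klf13) and 1 below it (Klf3), with 29.5% of all genes called, 15.5% above and 14.0% below. Klf6 lay 1.06 above on the log2 scale (SE 0.066, adjusted p = 0.000998), Klf7 0.91 (SE 0.051, adjusted p = 0.000753) and Klf2 0.92 (SE 0.14, adjusted p = 0.0107). For Klf9, which fell on both days, the value was 0.57 (adjusted p = 0.00206), since the second step was the larger. By probe limma called 5 members above the midpoint and 0 below (1 below at an unadjusted p of 0.05), with 15.4% of probes called, 9.15% above and 6.24% below. The gene-level calls of Klf12, Klf3 and Klf13 changed under 8, 6 and 1 of the 14 alternatives. Klf5, which was not called, passed as above the midpoint under 3 of them.

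**Figure D3:**
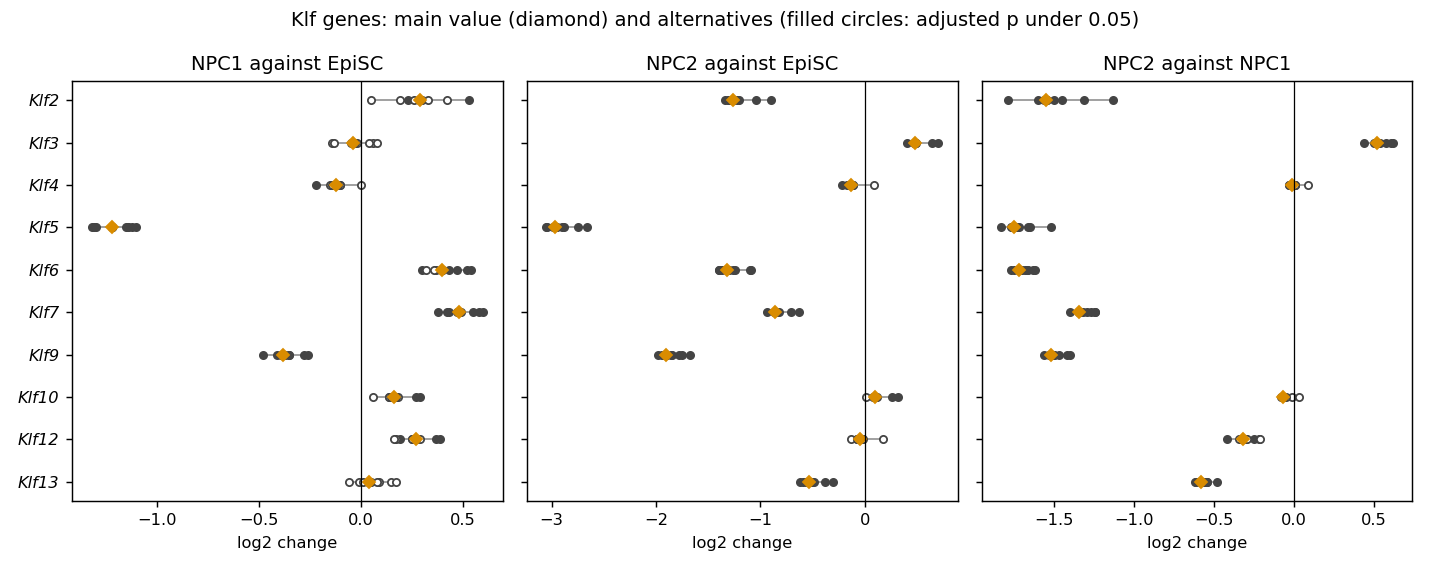
Log2 change of the 10 Klf genes in 3 comparisons as reported (diamonds) and under 14 alternatives (circles, filled where the adjusted p was under 0.05). The values of Klf5 and Klf9 stay on the same side of 0 and filled in all panels. In NPC1 against EpiSC, Klf2, Klf4, Klf6, Klf10 and Klf12 mix filled and open circles.

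The largest difference between group means ranged from 0.133 log2 units for Klf4 to 2.97 for Klf5, and 5 members (Klf2, Klf5, Klf6, Klf7 and Klf9) reached 1, as did 23.0% of all tested genes. Duplicates of members differed by a median of 0.0595 log2 units, against 0.0745 over all tested genes. Patterns were set side by side by the root mean square difference of log2 values centred on each gene, over the 6 arrays. Among the 45 pairs of members the closest of the strongly varying ones were Klf2 and Klf6, at 0.2, Klf6 and Klf7, at 0.21, and Klf2 and Klf7, at 0.24. The farthest pair was Klf3 and Klf5, at 1.4.

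Among the tested genes with patterns most like a member, Zbtb32, a zinc finger repressor gene, lay 0.065 from Klf5. Csrp1, a LIM domain protein gene, lay 0.04 from Klf6, and Plac8 0.069. Dtx1, a Notch pathway ubiquitin ligase gene, lay 0.053 from Klf7. The nearest to Klf9 were Tnk1, at 0.032, and Lnx1, at 0.051, both measured in the same 6 arrays. Itpka, an inositol trisphosphate kinase gene, at 0.082, and Rab20, at 0.12, were nearest to Klf2. After normexp background correction Rab20 lay 0.24 from Klf2, Plac8 0.15 from Klf6 and Lnx1 0.12 from Klf9.

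The rest of the KLF and Sp family moved in both directions. Of the 16 other genes listed, 14 passed the filter on dim probes, which Klf17 and Sp9 did not. In NPC2 against EpiSC 6 were higher and 6 lower, in NPC1 against EpiSC 4 were higher and 5 lower, and in NPC2 against NPC1 4 were higher and 5 lower. Over all genes the shares higher and lower were, in the same order, 28.3% and 40.7%, 21.3% and 29.0%, and 20.8% and 26.6%. A separate fit of only the genes above background on all 6 arrays held 12 of the list, without Sp7 and Klf1. It called 6 higher and 5 lower in NPC2 than in EpiSC, beside 28.4% and 42.7% of all genes it tested. Its adjustment ran over fewer genes, so its calls can differ from those of the main fit. The median log2 change of the 14 in NPC2 against EpiSC was 0.19, against -0.10 over all genes. After normexp background correction these medians were -0.03 and -0.08.

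Sp5, a Wnt target and repressor of Wnt target genes, measured 870.1 and 853 in EpiSC, 140.0 and 241 in NPC1, and 7547 and 9274 in NPC2. It dipped on day 1 and was by far the highest on day 2. Sp5 was 4.69-fold lower in NPC1 than in EpiSC (log2 change -2.23, SE 0.27, adjusted p = 0.00293) and 9.71-fold higher in NPC2 than in EpiSC (log2 change 3.28, adjusted p = 0.000379). Sp8, which patterns the forebrain and limb, measured 39.2 and 44.4 in EpiSC, 63.9 and 98.9 in NPC1, and 1568 and 1808 in NPC2 on its brighter probe. The Sp8 log2 change in NPC2 against EpiSC was 5.33 on that probe (adjusted p = 4.67e-05) and 0.80 on the dimmer one (adjusted p = 0.014 over probes), so the probes agreed in direction and not in size.

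Several other family members fell. Klf15, linked to metabolism and heart growth, gave a log2 change of -1.77 in NPC2 against EpiSC (adjusted p = 3.92e-05), Klf16 gave -1.15 (adjusted p = 4e-05) and the CtBP-binding Klf8 -0.94 (adjusted p = 0.000187). The erythroid factor Klf1 gave -1.74 (adjusted p = 0.00327), with only 1 of 2 NPC2 arrays above background. Sp1 and Sp2, general activators or repressors at GC boxes, fell by 0.41 and 0.40. Klf11, a close relative of Klf10, was higher by 0.86 (adjusted p = 0.000568), Sp4, a neuronal Sp factor, by 0.69 and Sp6 by 0.84. The osteoblast factor Sp7 was below background in EpiSC and NPC1 and passed the filter only through NPC2, where it was at least 1.43-fold higher than in EpiSC. It is among those counted as higher, a call that was lost when probes were tested one by one (adjusted p = 0.0541 by limma). Klf14 was higher in NPC1 than in EpiSC, by 0.88 (adjusted p = 0.0137). Its signal was low, though above background on all 6 arrays, at 21.1 and 19.4 in EpiSC and 42.1 and 33.0 in NPC1.

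**Figure D4:**
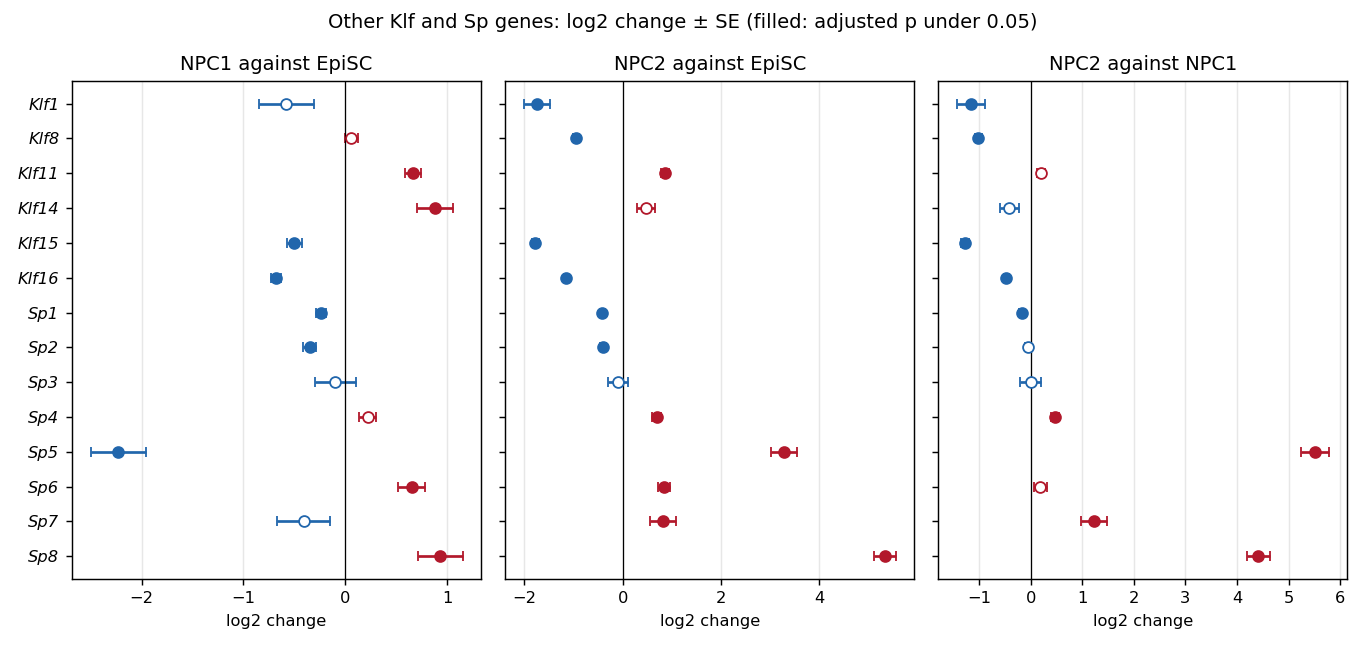
Log2 change with its SE of the 14 other Klf and Sp genes that passed the filter on dim probes, in 3 comparisons; filled points passed an adjusted p of 0.05 and each panel has its own axis. Sp5 lies far left of 0 in NPC1 against EpiSC and, with Sp8, far right in the other panels; Sp7 is drawn at its fitted value, although EpiSC and NPC1 were below background.

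Genes that act around the KLFs were taken as 6 lists. Their counts stand beside shares over all genes of 28.3% higher and 40.7% lower in NPC2 against EpiSC. In NPC1 against EpiSC these shares were 21.3% and 29.0%, and in NPC2 against NPC1 20.8% and 26.6%. The LIF, STAT3 and naive pluripotency list had 16 of 19 genes tested; 5 were higher and 11 lower in NPC2 than in EpiSC, with a median of -0.74 against -0.10 over all genes. In NPC1 against EpiSC 4 were higher and 8 lower. Tdh, the threonine dehydrogenase of embryonic stem cells, changed most, with a log2 change of -5.36 in NPC2 against EpiSC (adjusted p = 1.73e-05). Nr0b1, an orphan nuclear receptor gene, was at least 6.06-fold lower in NPC2, where it was below background, than in EpiSC. Gbx2, a STAT3 target that also patterns the early hindbrain, was higher by 4.29 (adjusted p = 2.6e-05), and Tbx3, which was above background in NPC2 only, at least 3.74-fold higher. Of the 13 genes above background on all 6 arrays, 4 were higher and 9 lower in NPC2 than in EpiSC. Stat3 itself, named after its values were seen, gave -0.83 in NPC1 and -1.43 in NPC2, both against EpiSC, and its feedback inhibitor gene Socs3 gave 0.26 and -0.89.

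In the list of immediate early and TGF-beta response genes, which includes inducers and neighbours of Klf6 and Klf10, 16 of 17 genes were tested. In NPC2 against EpiSC limma called 0 higher and 13 lower, with a median of -1.72. Of all genes 28.3% were higher and 40.7% lower, with a median of -0.10. At an unadjusted p of 0.05 there were also 0 of the list higher, while 2 were higher with quantile normalisation and 1 in the authors' value table. Of all genes 33.7% and 41.7% were higher in these settings. NPC2 against NPC1 gave 1 higher and 13 lower. In NPC1 against EpiSC 4 were higher and 8 lower. Those higher on day 1 were Ier3 (log2 change 0.80), Jun (0.43), Btg2 (0.34) and Atf3 (0.21); all but Ier3 were named after their values were seen. Ier3, a stress-induced survival gene, and Junb, an AP-1 subunit gene, were lower in NPC2 than in EpiSC by 8.89-fold and 7.67-fold. Smad7, the inhibitory Smad gene, was 12.5-fold lower in NPC1 and 13.7-fold lower in NPC2, both against EpiSC.

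All 17 genes of the list of KLF cofactors and modifying enzymes were tested. In NPC2 against EpiSC 4 were higher and 10 lower, beside 28.3% higher and 40.7% lower of all genes. The list's median of -0.19 became 0.03 in the authors' value table, with 6 higher and 5 lower. The median of all genes moved as well, from -0.0982 to 0.125, with 41.7% higher and 26.4% lower in that table. Ctbp2, which encodes a corepressor used by Klf3 and Klf12, was 2.53-fold lower in NPC2 than in EpiSC (adjusted p = 2.08e-05), and Kat2b, an acetyltransferase gene, 5.45-fold lower (adjusted p = 8.64e-05). The Sin3 corepressor gene Sin3b gave a log2 change of -0.45 and Fhl3, a LIM protein gene, -0.84.

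Of the ERK5, MEF2 and FoxO genes, which act upstream of Klf2 in endothelium and lymphocytes, 7 of 8 were tested, with 3 higher and 4 lower in NPC2 than in EpiSC. Here and for the hormone and neurite lists below, the shares of all genes were 28.3% higher and 40.7% lower. Mapk7, which encodes ERK5, was higher by 0.49, Foxo3 was higher by 0.66, and Mef2d and Foxo1 gave -1.47 and -2.50. Among the hormone response genes 8 of 9 were tested, 2 higher and 6 lower. The glucocorticoid receptor gene Nr3c1 gave -2.25 in NPC2 against EpiSC, and Sgk1, a glucocorticoid-induced kinase gene, -4.26. The thyroid hormone receptor gene Thra was higher by 1.49 and Tsc22d3, also induced by glucocorticoids, by 1.63. In the list of neurite and cell cycle genes linked to Klf7, 6 of 7 were tested. Of these, 4 were higher and 2 lower in NPC2 than in EpiSC. The authors' value table had 41.7% of all genes higher and 26.4% lower. There, 4 of the list were higher and both lower calls were lost. The higher genes were Gap43, a growth cone protein gene (0.63), the neurotrophin receptor gene Ntrk2 (0.51) and the cell cycle inhibitor genes Cdkn1b (0.39) and Cdkn1c (0.85). The lower ones, named after their values were seen, were the adhesion molecule gene L1cam (-0.36) and the cell cycle inhibitor gene Cdkn1a (-0.33).

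**Figure D5:**
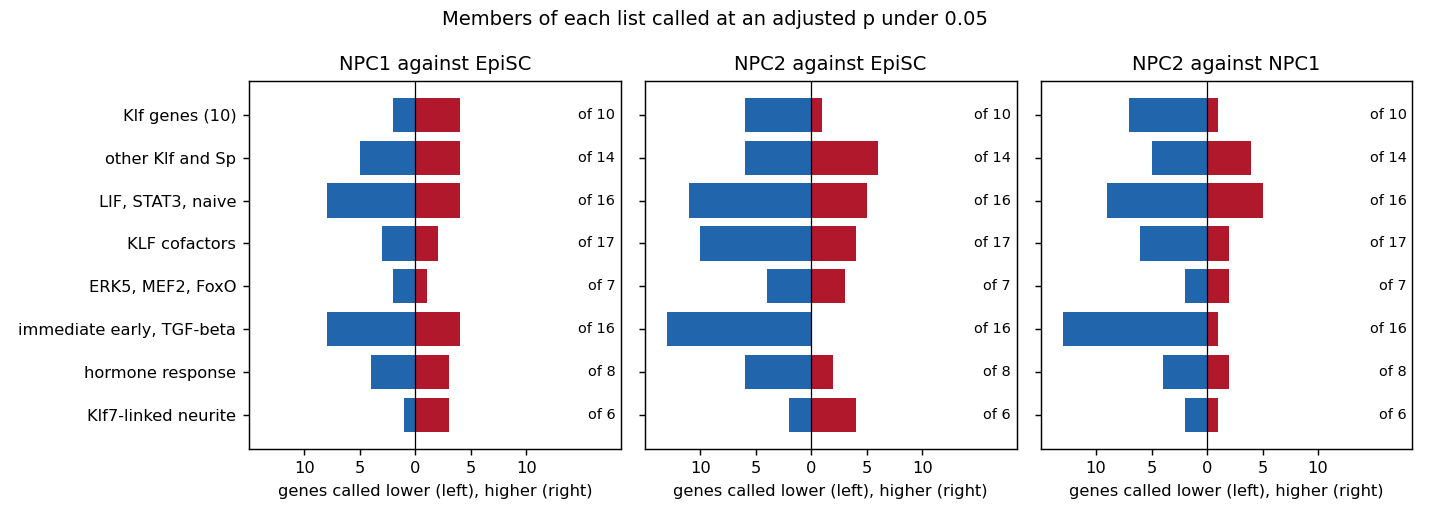
Number of genes of each list called lower (left of 0) and higher (right of 0) at an adjusted p of 0.05 in 3 comparisons; the number tested stands at the right. The immediate early and TGF-beta list has 13 of 16 lower in NPC2 against EpiSC and against NPC1, and 0 and 1 higher.

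Markers of other cells that the cultures could hold were followed beside these genes. Of the fibroblast markers 11 of 12 were tested, 6 higher and 3 lower in NPC2 than in EpiSC. Of all genes 28.3% were higher and 40.7% lower in that comparison. Postn and Pdgfra passed the filter only through NPC2, and of the 9 above background on all 6 arrays 4 were higher and 3 lower. The summed level of the 12 was 6978 to 7461 in NPC2, 5127 to 5353 in NPC1 and 3424 to 3607 in EpiSC, and Lum was below background on all arrays. Endoderm markers summed to 866 to 905 in NPC2, 354 to 381 in NPC1 and 3495 to 3540.4 in EpiSC, with 5 of 6 tested lower and 1 higher in NPC2 than in EpiSC, and Ttr below background throughout. The part of these markers in the Klf results was not tested.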

How the data were processed

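Gene expression was measured on 6 one-colour Agilent arrays on 1 slide, 2 cultures for each of EpiSC, NPC1 and NPC2. The deposited scanner files hold processed spot intensities (background-subtracted and corrected by Agilent Feature Extraction, per the file headers). On comparison, the value table that the authors deposited is these intensities on a linear scale, each array times a constant of its own between 2.10 and 2.41. Its column medians were 51.3 to 65.3 and its genes were not centred; the basis of the constant is unknown here.

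From these, spots of a probe were averaged, 35 of 55681 probes were left out for outlier flags, and log2 intensity minus each array's 75th percentile was taken. RefSeq names were found for 26744 probes and for none of the other 28902; no probe had several. A gene was read from its brightest probe of those detected above background in both cultures of any group, leaving 14773 genes. The tests used limma 3.58.1 (R 4.3.3) and 1 fit of all 6 arrays with 3 residual degrees of freedom, two-sided, with Benjamini-Hochberg adjustment over all genes and a threshold of 0.05. The fit was tested on simulated data. The number of arrays limits the precision.

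A fold against a group below background is a bound, against the higher of each array's lowest signal well above background and the probe's own. Named were all 10 members, the called genes of the other Klf and Sp list, the 4 called genes with the largest change in NPC2 against EpiSC of each of 6 further lists, and the 2 genes most like each member that spans at least 1 log2 unit. Some genes that these rules name are not reported here. The members and lists were chosen with earlier results of these data known. Alternatives were background correction, between-array scaling, the authors' table, filters on dim probes, the mean over a gene's probes, a block for the culture letter and each culture left out.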

Additional observations from a re-analysis of the deposited data

How the results depend on the processing

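With 2 cultures a group, on 1 slide and from 1 seed culture, small changes depended on the settings; the cause was not tested for any of them. In all 14 alternatives Klf5, Klf7 and Klf9 kept their direction and call in the 3 pairwise comparisons, as did Klf2, Klf3, Klf6 and Klf13 in both comparisons of NPC2. No result reversed among called values. The number of members higher in NPC1 than in EpiSC (4 as reported) was 2 with median scaling, 2 with no filter on dim probes and 2 with the replicate block, and 1 to 3 with 1 culture left out; it was 1 without EpiSC culture A. Of all genes 16.0% were higher with median scaling, 12.8% with no filter and 19.8% with the replicate block (21.3% as reported). In NPC2 against EpiSC, 2 members were higher with quantile normalisation and 2 in the authors' value table (1 as reported). Of all genes 33.7% and 41.7% were higher in these settings (28.3% as reported). The share of all genes below the midpoint was 6.44% with no filter (14.0% as reported). Below the midpoint, the count of 1 became 0 with no filter and 0 to 1 with a culture left out, being 1 only without NPC1 culture A.

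By probe, NPC1 against EpiSC had 4 members higher in the authors' table, 1 with no filter and 1 with the replicate block (2 as reported), and 1 to 2 with a culture left out; the count lower was 1 to 2. Of all probes 23.3% were higher in the authors' table, 6.08% with no filter and 14.0% with the replicate block (16.0% as reported). By probe, NPC2 against EpiSC had 2 higher with quantile normalisation and 2 in the authors' table. Of all probes 26.8% and 37.0% were higher in these settings (23.9% as reported). Above the midpoint 3 probes were called with no filter and 3 to 4 with a culture left out (5 as reported). Below it there was 1 with normexp, 1 with median scaling and 1 with the filter on all 6 arrays (0 as reported). Of all probes 9.54%, 8.37% and 7.42% were called below it in these settings (6.24% as reported). Above it the share was 2.44% with no filter (9.15% as reported).

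Over all genes, leaving out a culture gave 4880 to 6720 calls in NPC1 against EpiSC (7434 as reported, lowest without EpiSC culture B) and 2478 to 3176 against the midpoint (4355 as reported, lowest without NPC1 culture A). Over probes these ranges were 5673 to 9129 (11183 as reported, lowest without EpiSC culture B) and 1788 to 2997 (5162 as reported, lowest without NPC1 culture A), and 6379 to 8804 in NPC2 against NPC1 (10679 as reported, lowest without NPC2 culture B). With no filter, which also tests dim probes, probe calls numbered 6507 in NPC1 against EpiSC, 2185 against the midpoint and 6908 in NPC2 against NPC1.

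The scaling shifted the median of all genes. In NPC2 against EpiSC it was -0.0982 as reported, 0.125 in the authors' table and -0.181 with median scaling; in NPC1 against EpiSC it was -0.0541, 0.0695 and -0.154. The share of called genes that were lower in NPC1 than in EpiSC was 57.7% as reported, 37.9% in the authors' table and 71.0% with median scaling. In NPC2 against EpiSC it was 59.0%, with 38.8% in the authors' table. In NPC2 against NPC1 it was 56.1%, with 41.0% in the authors' table, and against the midpoint 47.4%, with 61.5% under median scaling.

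The culture letters share only a letter: same-letter arrays deviated from their group means with correlations of 0.0081, 0.0062 and -0.045. As a replicate block they left 6867 calls in NPC1 against EpiSC, and the Klf10, Klf12 and Atf3 day 1 calls were lost.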
